A study of Mus musculus with 2 samples.

Results

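Interstitial mesenchymal cells of the mouse testis were taken from single-cell RNA profiles of whole dissociated testis, with 1 library of each genotype. The cKO library came from mice with a floxed and a deleted Dot1L allele that carry Ddx4-Cre (Dot1L fl/delta; Ddx4-Cre+). The control library came from mice with 1 floxed and 1 wild-type allele and no Cre (Dot1L fl/+; Cre-). DOT1L is a histone methyltransferase. Ddx4 is a germ cell gene, so mesenchymal cells are not the cells in which this Cre is made, but in the cKO mice they carry the delta allele that the control mice do not have. Tubules were released with collagenase type IV and then trypsin, and libraries were made with the Chromium 3′ v3.1 kit, which reads the 3′ ends of transcripts. The labels give no age and no number of animals for either library.

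A barcode, which stands for 1 droplet, counted as mesenchymal if it had 500 or more UMIs (counted RNA molecules) and at most 10% of them from mitochondrial genes. In addition, at least 3 of the genes Dcn, Col1a1, Col1a2, Col3a1, Pdgfra, Tcf21 and Lum had to be detected and make 0.2% or more of its UMIs. This held for 148 of the 34349 barcodes that passed the UMI and mitochondrial limits, and 38009 barcodes were deposited in all. There were 121 such barcodes among 18451 kept in the cKO library and 27 among 15898 kept in the control library. The barcodes were thus chosen by the measured counts of these 7 genes, whose levels are given as a description. With 1 library of each genotype there is no replicate check of any difference, and intervals cover counting error only.

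The interstitium is the tissue between the seminiferous tubules, and it holds steroid-making Leydig cells, macrophages, vessels and a mesenchyme of fibroblast-like cells. These mesenchymal cells lay down collagens and proteoglycans, secrete growth factors and protease inhibitors, and are marked in the mouse by the platelet-derived growth factor receptor PDGFRA and the transcription factor TCF21. Peritubular myoid cells, flat contractile cells around the tubules, are a related stromal cell that shares several of these genes and adds smooth muscle proteins such as ACTA2 and MYH11.

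Promoters of 3 of the 7 genes are shown. Col1a2 and Col3a1 encode fibrillar collagen chains at close levels in both genotypes. Tcf21 is the 1 measured gene of the set past 2-fold, though not in every processing setting. RefSeq (build GRCm38.p6) gave an entry for 4 of the 7 genes, each from 250 bases before to 50 bases after the start of the gene in RefSeq. The GENCODE annotation starts Col1a2 further upstream, at chr6:4504814, so the whole Col1a2 window lies inside the gene as GENCODE gives it. The windows are chr6:4505368-4505667 on the plus strand for Col1a2, chr1:45311288-45311587 on the plus strand for Col3a1 and chr10:22820094-22820393 on the minus strand for Tcf21. Capitals mark matches to 3 motifs searched on both strands, which were the CCAAT box, the TATAAA element and the CAGCTG form of the E-box.
Col1a2: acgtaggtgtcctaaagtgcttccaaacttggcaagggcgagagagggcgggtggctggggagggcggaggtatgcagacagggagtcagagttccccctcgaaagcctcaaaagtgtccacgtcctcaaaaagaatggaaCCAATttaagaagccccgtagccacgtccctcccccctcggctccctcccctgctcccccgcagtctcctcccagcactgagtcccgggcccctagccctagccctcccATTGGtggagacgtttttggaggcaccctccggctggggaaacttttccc
Col3a1: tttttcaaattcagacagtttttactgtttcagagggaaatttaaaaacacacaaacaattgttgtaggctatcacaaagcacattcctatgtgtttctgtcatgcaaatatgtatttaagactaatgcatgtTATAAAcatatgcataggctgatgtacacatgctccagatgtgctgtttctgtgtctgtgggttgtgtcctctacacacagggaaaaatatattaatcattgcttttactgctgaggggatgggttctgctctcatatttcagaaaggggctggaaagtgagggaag
Tcf21: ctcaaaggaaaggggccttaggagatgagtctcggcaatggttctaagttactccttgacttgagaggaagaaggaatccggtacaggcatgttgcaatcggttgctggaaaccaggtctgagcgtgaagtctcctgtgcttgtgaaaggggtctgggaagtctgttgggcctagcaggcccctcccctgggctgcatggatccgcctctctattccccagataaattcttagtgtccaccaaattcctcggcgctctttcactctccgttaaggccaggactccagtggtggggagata
The Col1a2 window held CCAAT at position -109 from the start, and again on the opposite strand at position 1, printed there as ATTGG. The Col3a1 window held TATAAA at position -117. Neither the Tcf21 nor the Pdgfra window held any of the 3 motifs. Among 32851 RefSeq promoters of the same length, 37.4% held the CCAAT box, 13.6% held the TATAAA element and 16.3% held the CAGCTG form, and no matches overlap in the windows shown.

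The deposited tables held 156518838 UMIs in 20601 cKO barcodes and 155487418 UMIs in 17408 control barcodes. The mesenchymal barcodes contributed 312150 UMIs in the cKO library and 66505 UMIs in the control library. Their depth was alike, with a median of 2235 UMIs per barcode in the cKO library (range 519 to 17730) and 2402 in the control library (range 800 to 6168). They had a median of 1408 genes in the cKO library and 1422 in the control library, and a median mitochondrial share of 3.92% in the cKO library and 4.75% in the control library. After each barcode was thinned to 500 UMIs, the median was 404 genes in cKO and 393 in control mesenchymal barcodes. Between the libraries, 102 barcode sequences were shared, and none of them was mesenchymal.

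Mesenchymal barcodes made up a larger part of the cKO library. They were 0.656% of kept barcodes in the cKO library (95% Clopper-Pearson interval 0.544% to 0.783%), against 0.170% in the control library (0.112% to 0.247%). The share was 3.86 times as high in the cKO library, with an exact 95% counting interval of 2.53 to 6.10, and a log2 ratio of 1.95. The other interstitial cells were found with analogous rules on 7 genes each. Leydig barcodes numbered 284 (1.54%) in the cKO library and 82 (0.516%) in the control library, a log2 ratio of 1.58. Macrophage barcodes numbered 140 (0.759%) in the cKO library and 36 (0.226%) in the control library, a log2 ratio of 1.74.

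Set against these interstitial cells alone, the difference was within counting error. Mesenchymal barcodes were 22.2% of the 545 mesenchymal, Leydig and macrophage barcodes of the cKO library (18.8% to 25.9%) and 18.6% of the 145 of the control library (12.6% to 25.9%). The log2 ratio of that share was 0.25, with an interval of -0.36 to 0.91. More mesenchymal cells in the tissue, fewer germ cells recovered beside them and a difference in dissociation cannot be told apart with 1 suspension of each genotype.

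**Figure D1:**
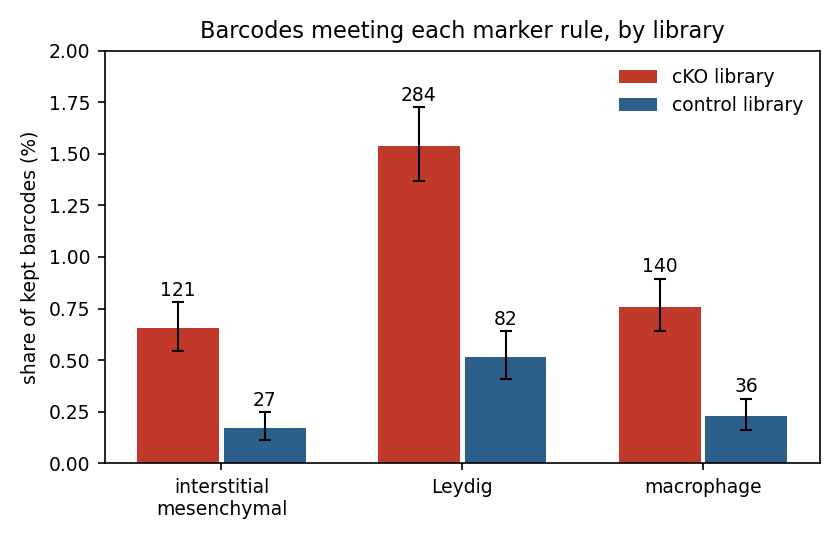
Bars give the share of kept barcodes (%) that met the interstitial mesenchymal, Leydig or macrophage rule in the cKO library (red) and the control library (blue), with 95% Clopper-Pearson intervals and the number of barcodes above each bar. The cKO share is the higher one for each cell type, at 0.656% against 0.170% for mesenchymal barcodes.

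The rule has a limit on the share of UMIs and one on the number of genes. The 3 lowest barcodes inside it had the 7 genes at 0.205%, 0.236% and 0.249% of UMIs in the cKO library, and at 0.235%, 0.286% and 0.292% in the control library. Among barcodes with 3 or more of the genes, the 3 highest outside the rule were at 0.186%, 0.184% and 0.182% in the cKO library and at 0.139%, 0.0904% and 0.0866% in the control library. Barcodes with 3 or more of the genes but less than 0.2% of UMIs numbered 33 in the cKO library and 7 in the control library. Those had a median of 17012 UMIs in the cKO library and 18751 UMIs in the control library, far more than mesenchymal barcodes had. At the other limit, 33 cKO and 6 control mesenchymal barcodes had exactly 3 of the genes, while 16 cKO and 8 control barcodes had exactly 2 at 0.2% or more of UMIs and stayed outside.

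Dcn, a small proteoglycan that binds collagen fibrils (chr10:97479609-97518143, plus strand, mm10), had 2260 UMIs in cKO and 570 UMIs in control mesenchymal barcodes. Scaled to the summed UMIs of the mesenchymal barcodes of its library (CPM), this was 7240 CPM in the cKO library and 8571 CPM in the control library, a log2 ratio of -0.24 (-0.38 to -0.11). It was detected in 119 of 121 cKO and all 27 control barcodes. A single control barcode held 94 of the 570 control UMIs. Without the top Dcn barcode of each library the ratio was -0.02 (-0.16 to 0.13). Because 3′ counting gives no value per transcript length, levels are compared between libraries for 1 gene and not between genes.

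The collagens and the receptor had ratios below 0 within 2-fold. Col1a2 was at 1185 CPM in cKO and 1233 CPM in control barcodes, a log2 ratio of -0.06. Col3a1 was at 634 CPM in cKO and 767 CPM in control barcodes, a log2 ratio of -0.27 (-0.72 to 0.20). Pdgfra was at 458 CPM in cKO and 556 CPM in control barcodes, a log2 ratio of -0.28 (-0.81 to 0.28). Col1a1 had 96 UMIs in cKO and 27 UMIs in control barcodes, a log2 ratio of -0.40 (-1.03 to 0.27). The intervals of these 4 ratios included 0. Lum, the proteoglycan lumican, had 5 UMIs in cKO and 4 UMIs in control barcodes, too few for a ratio to be read.

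Tcf21 was the 1 measured gene of the rule past 2-fold. This helix-loop-helix transcription factor (chr10:22817281-22820174, minus strand) had 86 UMIs in 60 cKO barcodes and 9 UMIs in 9 control barcodes. Its level was 276 CPM in cKO and 135 CPM in control barcodes, a log2 ratio of 1.03 with an interval of 0.03 to 2.20. This is close to the limit, and the rule itself used the gene. The highest ratio of a measured rule gene was 0.81 without barcodes meeting a peritubular myoid rule and 0.85 without barcodes of more than 5% late spermatid UMIs. It was 0.95 with equal weight per barcode and 0.99 with scaling to the median ratio of the measured genes. With a minimum of 100 UMIs per gene, Tcf21 was no longer measured. The remaining settings kept the ratio past 2-fold, such as 1.17 with rule genes at 0.5% or more of UMIs. Thinned to 1000 UMIs, Tcf21 was detected in 25.2% of 107 cKO barcodes and 7.7% of 26 control barcodes. Of the 60 cKO barcodes with Tcf21, 37 also had Pdgfra, and of the 9 control barcodes 6 did.

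Genes that the rule did not name were also far higher in these barcodes than in the other kept barcodes. Only 366 Leydig and 176 macrophage barcodes were among those others, so a gene shared with such cells can also rank high. All 15 genes with the highest ratio over the other kept barcodes, among those with 200 or more UMIs, were between 8.71 and 11.43 on the log2 scale. They were Adamts5, Mgp, Fhl2, Cyp26b1, Igfbp6, Fgl2, Id3, Nrk, Gsn, Ebf1, Plpp3, Serping1, S100a6, Ifitm3 and Sparcl1. Mgp, matrix Gla protein and an inhibitor of calcification, was at 2300 CPM in cKO and 2286 CPM in control mesenchymal barcodes. In other kept barcodes it was at 1.44 CPM in the cKO library and 0.448 CPM in the control library. Thinned to 500 UMIs, Mgp was detected in 61.2% of cKO and 55.6% of control mesenchymal barcodes and in 0.1% of other barcodes of each library. Unthinned, it was detected in 101 cKO and 23 control mesenchymal barcodes.

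The neighbouring interstitial cells had part of this profile. The 16 mesenchymal markers outside the rule summed to 9922 CPM in cKO and 10977 CPM in control mesenchymal barcodes, against 2334 CPM in cKO and 2261 CPM in control Leydig barcodes. In macrophage barcodes they summed to 141 CPM in the cKO library and 288 CPM in the control library. Complement genes of stroma summed to 2182 CPM in cKO and 1970 CPM in control mesenchymal barcodes, against 1708 CPM in cKO and 1771 CPM in control Leydig barcodes.

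Single genes differed in how far they were shared. Adamts5, a secreted protease that cuts aggrecan and versican, was at 1387 CPM in cKO and 1849 CPM in control mesenchymal barcodes, and at 0.532 CPM in cKO and 0 CPM in control Leydig barcodes. Igf1, a growth factor of testis stroma, was at 1073 CPM in cKO and 1233 CPM in control mesenchymal barcodes. Macrophage barcodes also held Igf1, at 449 CPM in the cKO library and 366 CPM in the control library. Cyp26b1, which breaks down retinoic acid, was at 705 CPM in cKO and 632 CPM in control mesenchymal barcodes. These levels describe the barcodes, since the choice by marker counts fixes part of them.

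**Figure D2:**
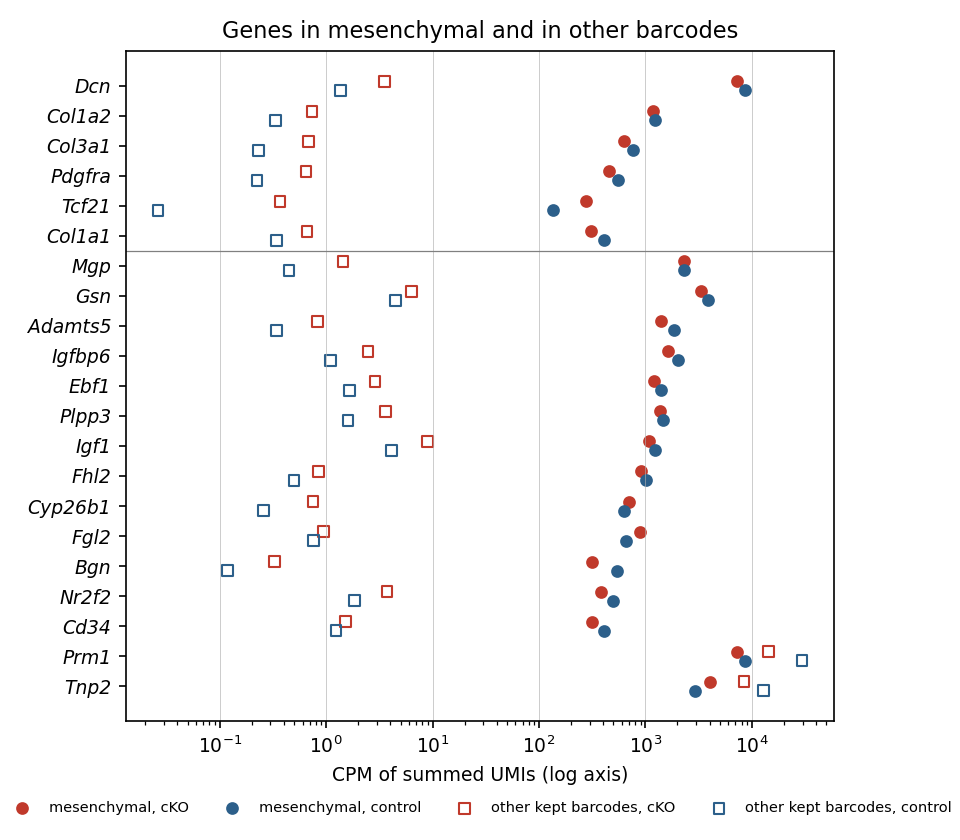
CPM of summed UMIs on a log axis for the genes of the rule (above the line) and other genes, in mesenchymal barcodes (filled circles) and all other kept barcodes (open squares) of the cKO library (red) and the control library (blue). Mesenchymal genes sit far to the right of the other barcodes, while the spermatid genes Prm1 and Tnp2 are higher in the other barcodes.

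Macrophage, endothelial and pericyte genes gave few UMIs in mesenchymal barcodes, and Leydig and Sertoli genes were found at low levels. Macrophage genes gave 4 UMIs in cKO and 2 UMIs in control mesenchymal barcodes, with 8 of the 12 at 0, including Csf1r, Adgre1 and C1qa. Endothelial genes gave 19 UMIs in cKO and 6 UMIs in control barcodes, with 6 of the 11 at 0, including Pecam1, Kdr and Cldn5. That was 60.9 CPM in cKO and 90.2 CPM in control mesenchymal barcodes, above the 31.4 CPM and 24.7 CPM of other kept barcodes. Pericyte genes gave 42 UMIs in cKO and 8 UMIs in control barcodes, with 4 of the 10 at 0, including Rgs5, Notch3 and Kcnj8. That was 135 CPM in cKO and 120 CPM in control mesenchymal barcodes, beside 97.5 CPM and 99.0 CPM in other kept barcodes. The 9 Leydig genes summed to 580 CPM in cKO and 316 CPM in control mesenchymal barcodes, against 12778 CPM in cKO and 14677 CPM in control Leydig barcodes. A single cKO mesenchymal barcode held 99 of the 181 cKO UMIs of these genes, and a single control barcode held 18 of the 21 control UMIs. Other kept barcodes had the Leydig genes at 382 CPM in the cKO library and 157 CPM in the control library. The 14 Sertoli genes, which include the broadly made protease gene Ctsl, summed to 810.5 CPM in cKO and 1248 CPM in control mesenchymal barcodes. In other kept barcodes they summed to 449 CPM in the cKO library and 234 CPM in the control library. At least 1 gene of this list was found in 103 cKO and 24 control mesenchymal barcodes, and Ctsl by itself was found in 82 cKO and 23 control barcodes. The part of these UMIs in any ratio was not tested. No doublet caller was run. The rule of 3 genes and 0.2% of UMIs was met for the Leydig list by 2 cKO and 1 control barcodes and for the Sertoli list by 4 cKO and 2 control barcodes.

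Germ cell RNA was present in every mesenchymal barcode. The 12 late spermatid genes, such as the protamines that pack sperm DNA, made 3.19% of mesenchymal UMIs in the cKO library and 3.46% in the control library. In all UMIs of the library they made 5.98% in the cKO library and 9.47% in the control library. Per barcode, the late spermatid share had a median of 1.51% in cKO barcodes (0.312% to 20.7%) and 2.56% in control barcodes (1.05% to 15.3%). A few barcodes held much of it, since 12 cKO barcodes with more than 5% contributed 62.9% of these UMIs and 4 such control barcodes contributed 42.0%.

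The ratio of protamine 1 moved with these barcodes. Prm1 was at 7279 CPM in cKO and 8601 CPM in control mesenchymal barcodes, a log2 ratio of -0.24, against -1.04 in other kept barcodes. Without barcodes of more than 5% late spermatid UMIs, the ratio in mesenchymal barcodes was -1.34. One cKO barcode held 523 of the 2272 cKO Prm1 UMIs. Thinned to 500 UMIs, Prm1 was detected in 81.8% of cKO and 100.0% of control mesenchymal barcodes.

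Across genes, 1335 had 50 or more UMIs over both sets of mesenchymal barcodes and were measured. Their median log2 ratio was 0.04, and the lower and upper quartiles were -0.31 and 0.47. A difference of 2-fold or more, which is a rule of size and not a test, held for 115 genes that were higher in cKO barcodes (8.61%) and 31 that were lower (2.32%). Against other kept barcodes, 568 of the 1335 (42.5%) were 2-fold or more enriched in mesenchymal barcodes. Only 366 Leydig and 176 macrophage barcodes were found beside them, so genes shared with those cells also count as enriched. The 5 measured genes of retinoid and lipid handling all do, yet that list summed to 6490 CPM in cKO mesenchymal and 15526 CPM in cKO Leydig barcodes. In the control library it summed to 5428 CPM in mesenchymal and 18437 CPM in Leydig barcodes. Of these mesenchyme-enriched genes, 21 (3.7%) were 2-fold or more higher and 25 (4.4%) lower in cKO barcodes, with a median log2 ratio of -0.21. Of the 767 other genes, 94 were higher and 6 lower, with a median of 0.23. The late spermatid genes were at 53.4% of the level of the whole library in cKO and 36.5% in control mesenchymal barcodes, and the part of free RNA in these counts was not tested. Scaling to the enriched genes instead would add 0.25 to every log2 ratio, giving 188 genes higher and 13 lower. For the enriched genes alone that scaling gave 37 higher and 10 lower. Subtraction of the library profile as free RNA gave 50 higher and 14 lower with a median of 0.17, so their direction depends on scaling and subtraction. The part subtracted was set by the pooled late spermatid UMIs. Of those, 12 cKO barcodes held 62.9% and 4 control barcodes held 42.0%, so free RNA and mixed barcodes cannot be told apart in it.

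**Figure D3:**
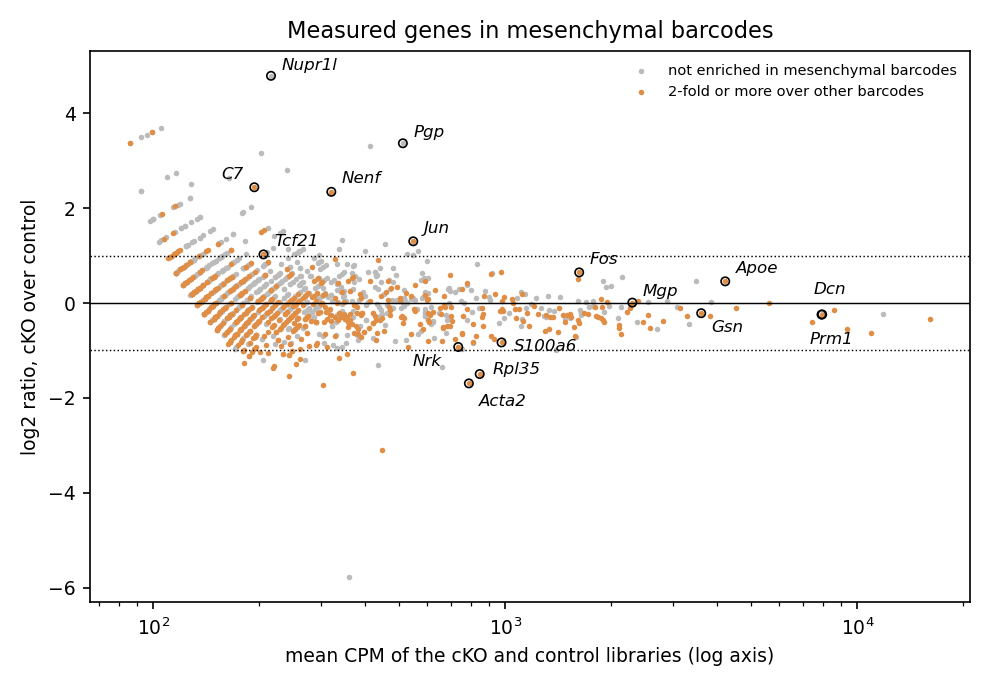
Each point is 1 of 1335 measured genes, with its mean CPM over the 2 libraries (log axis) against its log2 ratio of cKO over control mesenchymal barcodes, in orange if 2-fold or more over other barcodes. Dotted lines mark 2-fold, and most matrix genes lie near 0 while Nupr1l, Pgp, Nenf and C7 lie above and Acta2 and Rpl35 below.

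Counts of matrix genes past 2-fold are to be read beside the 8.61% of all measured genes that were higher and the 2.32% that were lower. Of 10 measured markers of mesenchyme outside the rule, 1 was 2-fold or more higher and none lower, with a median log2 ratio of -0.16, beside 0.04 over all measured genes. Gsn, the actin-severing protein gelsolin, was at 3332 CPM in cKO and 3864 CPM in control barcodes, a log2 ratio of -0.21. None of the 7 measured basement membrane genes passed 2-fold (median -0.27), and Lama2, a laminin chain, was at 0.04. Among 6 measured proteoglycans and matricellular genes 1 was higher, and the median was -0.29. Bgn, the proteoglycan biglycan, was at 314 CPM in cKO and 541 CPM in control barcodes, a log2 ratio of -0.79 (-1.35 to -0.19).

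Genes of surface and matrix that mark adventitial fibroblasts of other organs gave 6 measured members, none past 2-fold (median -0.25). Cd34, a surface sialomucin, was at 317 CPM in cKO and 406 CPM in control barcodes, a log2 ratio of -0.36 (-0.98 to 0.32).

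The matrix genes past 2-fold were counted in few control molecules. Pcolce, which enhances the trimming of procollagen, had 52 UMIs in 35 cKO barcodes and 3 UMIs in 3 control barcodes, a log2 ratio of 1.88 (0.26 to 4.21). Smoc2, a calcium-binding matricellular protein, had 58 UMIs in 34 cKO barcodes and 3 UMIs in 3 control barcodes, a log2 ratio of 2.04 (0.42 to 4.36). In other kept barcodes the ratio of cKO over control was 0.70 for Pcolce and -0.13 for Smoc2. None of the 5 measured genes of matrix turnover passed 2-fold (median -0.47), with Adamts5 at -0.41 and Timp3, an inhibitor of metalloproteinases, at -0.76. A single control barcode held 72.7% of the control Timp3 UMIs. Without the top Timp3 barcode of each library the ratio was 0.76 (-0.46 to 2.27). None of the 5 measured elastic fiber genes passed 2-fold (median 0.01).

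With so few measured genes per list, counts of 0 past 2-fold are near the share over all measured genes. In the insulin-like growth factor axis none of 5 measured genes passed 2-fold (median -0.20). Igf1 was at -0.20 (-0.55 to 0.17) on the log2 scale, and the binding protein Igfbp6 at 1647 CPM in cKO and 2015 CPM in control barcodes, a log2 ratio of -0.29. Of the 5 measured genes of retinoid and lipid handling none passed 2-fold (median -0.07). Apoe, which carries lipids, was at 4873 CPM in cKO and 3549 CPM in control barcodes, a log2 ratio of 0.46 (0.26 to 0.66). Apoe was also higher in cKO Leydig barcodes (log2 ratio 1.22), macrophage barcodes (0.88) and other kept barcodes (1.30).

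Of 9 measured transcription factors of the interstitium, a list without the rule gene Tcf21, none passed 2-fold. Their median was -0.25, close to the -0.21 of all enriched genes, and 2 of the 9 were above 0. Nr2f2, the nuclear receptor COUP-TFII, was at 384 CPM in cKO and 496 CPM in control barcodes, a log2 ratio of -0.37 (-0.93 to 0.23). Tcf4 was at 0.46 (-0.17 to 1.17). Ebf1, a factor outside that list, was at 1192 CPM in cKO and 1413 CPM in control barcodes.

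Complement genes of stroma held the largest ratio among mesenchyme-enriched genes with 100 or more UMIs. C7, which joins the membrane attack complex (chr15:4988762-5063740, minus strand), had 102 UMIs in 26 cKO barcodes and 4 UMIs in 3 control barcodes. That was 327 CPM in cKO and 60.1 CPM in control barcodes, a log2 ratio of 2.44 (1.04 to 4.35). A single cKO barcode held 53 of the 102 UMIs, and without the top barcode of each library the ratio was 2.36 (0.43 to 5.45). The 5 measured complement genes had a median of 0.26, and C7 was the only 1 of them past 2-fold.

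**Figure D4:**
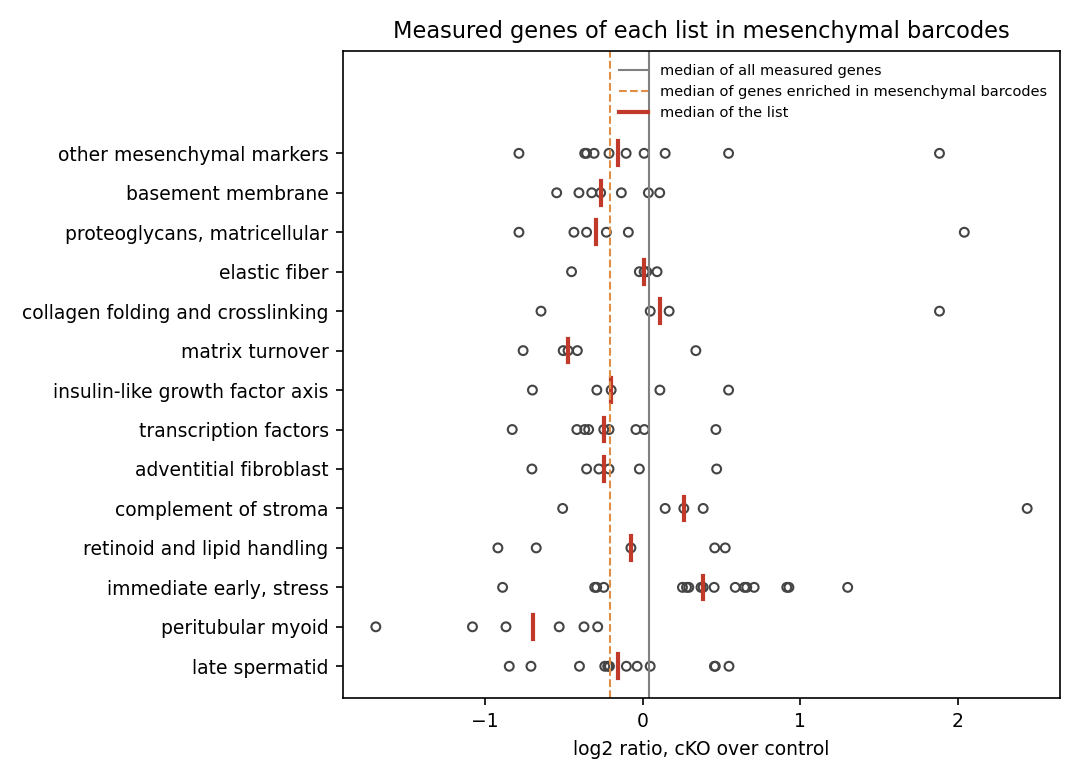
Each circle is 1 measured gene of a list, placed by its log2 ratio of cKO over control mesenchymal barcodes, with the median of the list as a red bar. The median is 0.38 for the immediate early list and -0.70 for the myoid list, beside -0.21 for enriched genes (dashed line) and 0.04 for all measured genes (solid line). Without the barcode with most UMIs in each library the myoid median is 0.70.

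Immediate early genes, which respond within minutes to growth factors, stress and tissue dissociation, had a higher summed level in the cKO library. That level was 9998 CPM in cKO and 7172 CPM in control mesenchymal barcodes, and 13 of the 17 measured genes had a ratio above 0, with a median log2 ratio of 0.38. Jun was the 1 gene of the 17 past 2-fold, beside 8.61% of all measured genes. Per barcode the list made a median of 1.04% of UMIs in the cKO library and 0.585% in the control library, and the 2 ranges overlapped.

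Jun, a subunit of the AP-1 transcription factor (chr4:95049034-95052222, minus strand), had 243 UMIs in 75 of 121 cKO barcodes and 21 UMIs in 9 of 27 control barcodes. Its level was 778 CPM in cKO and 316 CPM in control barcodes, a log2 ratio of 1.30 (0.66 to 2.02). Thinned to 1000 UMIs, it was detected in 49.5% of cKO and 15.4% of control mesenchymal barcodes, and in 1.3% of other cKO and 0.3% of other control barcodes. Fos, its partner, was at 1977 CPM in cKO and 1263 CPM in control barcodes, a log2 ratio of 0.65 (0.32 to 0.99).

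Both genes were also higher in neighbouring cells of the cKO library. Jun had a log2 ratio of 1.15 (0.65 to 1.69) in Leydig barcodes, 1.67 (1.15 to 2.23) in macrophage barcodes and 2.02 in other kept barcodes. Fos had a log2 ratio of 0.36 (0.07 to 0.66) in Leydig barcodes, 1.23 (0.88 to 1.59) in macrophage barcodes and 2.61 in other kept barcodes. The 2 suspensions were made apart, so genotype and handling cannot be told apart here.

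The other genes of this list were within 2-fold. Egr1 was at 0.59, Junb at 0.66, Dusp1 at 0.91 and Zfp36, which destabilises mRNA, at 0.93 on the log2 scale. Klf6 was the lowest at -0.89. Cebpd, an enriched inducible factor outside the list, had 96 UMIs in cKO and 7 UMIs in control barcodes, a log2 ratio of 1.55 (0.45 to 2.90).

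Of 6 measured smooth muscle genes of the myoid list, 2 were 2-fold or more lower and the median was -0.70. This rested on 1 control barcode, since the median was 0.70 without the barcode with most UMIs in each library and -0.03 with equal weight per barcode. Acta2, smooth muscle actin, had 116 UMIs in 11 cKO barcodes and 80 UMIs in 1 control barcode. This was 372 CPM in cKO and 1203 CPM in control barcodes, a log2 ratio of -1.69 (-2.12 to -1.27). The control barcode with Acta2 also had the most UMIs of the control set, 6168, and it held 10 of the 11 myoid genes beside 2 UMIs of Dcn. Without the barcode with most UMIs in each library, Acta2 was at least 2.99 higher on the log2 scale in cKO barcodes, taking 3 counts as the floor for control. Myl9, a myosin light chain, was at -1.08 with all barcodes and at 0.056 without those 2.

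The myoid genes marked a small set of barcodes within the mesenchymal rule. With 3 or more myoid genes at 0.2% or more of UMIs, 13 cKO and 2 control barcodes qualified, and these 15 held 195 of the 196 Acta2 UMIs. Myh11, smooth muscle myosin, and Tagln, transgelin, had no UMI in the 133 mesenchymal barcodes outside this set. Acta2, Myh11 and Tagln are on the list that picked the set, so this follows in part from the choice. Myh11 and Acta2 were found together in 7 cKO barcodes and 1 control barcode.

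Pooled over these 15 barcodes, decorin was at a lower level than in the others. Dcn was at 2093 CPM in the cKO and 1501 CPM in the control barcodes of the myoid set, against 7908 CPM in the cKO and 9629 CPM in the control barcodes outside it. Of the Dcn UMIs in the myoid set, the barcodes with more than 1% myoid UMIs held 11 of 75 in the cKO library and 2 of 13 in the control library, so the barcodes nearer the limit carry most of the pooled level. Gsn was at 558 CPM in the 13 cKO barcodes of the myoid set, with an interval of 341 to 862 CPM. Tcf21, a gene of the rule, was found in 10 of the 13 cKO barcodes, at 530 CPM. Outside the set it was found in 50 of 108 cKO barcodes, at 242 CPM. In the control library it was at 115 CPM (1 UMI) in the set and 138 CPM outside it. Depth also differed, with a median of 2778 UMIs in the 13 cKO barcodes and 2147 in the 108. A barcode low in Dcn had to meet the rule through its other genes, so the choice fixes part of these Tcf21 levels. The set was mixed, since 3 cKO barcodes and 1 control barcode in it had neither Acta2 nor Myh11, and 6 cKO barcodes and 1 control barcode had more than 1% myoid UMIs.

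**Figure D5:**
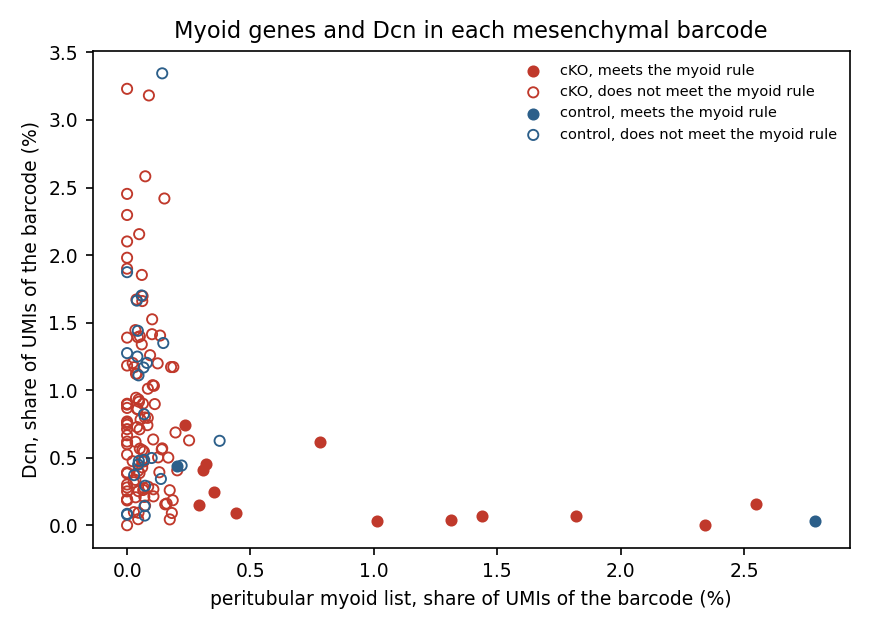
Each point is 1 mesenchymal barcode, with the share of its UMIs (%) from the 11 peritubular myoid genes against the share from Dcn, in red for the cKO library and blue for the control library, filled where the myoid rule was met. Barcodes above 1% of myoid UMIs, 6 in cKO and 1 in control, all have Dcn at 0.155% or less.

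Some large ratios were found in the other sets of barcodes too. Nenf, a secreted neurotrophic factor (chr1:191306789-191318194, minus strand), had 167 UMIs in 83 cKO barcodes and 7 UMIs in 6 control barcodes, a log2 ratio of 2.35 (1.27 to 3.68). Its ratio was 2.50 in Leydig barcodes, 4.18 in macrophage barcodes and 2.46 in other kept barcodes. Pgp, a phosphatase, had 291 UMIs in cKO and 6 UMIs in control barcodes, a log2 ratio of 3.37, beside 3.24 in other barcodes. Tssk6, a kinase of spermatids, had 126 UMIs in cKO barcodes and 0 in control barcodes, at least 8.95-fold higher with a floor of 3 control counts, beside a log2 ratio of 3.95 in other barcodes.

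Rpl35, a ribosomal protein gene, was lower in the other sets as well. It was at -1.50 in mesenchymal and -1.35 in other barcodes on the log2 scale, and 95% of the 40-base words in the last 400 bases of its transcript also occur in transcripts of another gene, so its counts are uncertain. The part that differences between the animals or the library preparation play in these genes was not tested.

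Among mesenchyme-enriched genes with 100 or more UMIs, several others lay at the low end. S100a6, a calcium-binding protein, was at 702 CPM in cKO and 1248 CPM in control barcodes, a log2 ratio of -0.83 (-1.20 to -0.45), beside 1.11 in other kept barcodes. Nrk, a kinase, was at 506 CPM in cKO and 962 CPM in control barcodes, a log2 ratio of -0.93 (-1.36 to -0.48). It had a ratio of -0.90 in Leydig barcodes. With fewer UMIs, the hedgehog co-receptor Boc had 47 UMIs in cKO and 21 UMIs in control barcodes, a log2 ratio of -1.07 (-1.84 to -0.25).

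Dot1l itself was too sparse to read in these cells. It had 4 UMIs in 4 cKO barcodes and 3 UMIs in 3 control barcodes, a log2 ratio of -1.82 with an interval of -4.38 to 0.96. In other kept barcodes Dot1l was at 24.3 CPM in the cKO library and 54.7 CPM in the control library, a log2 ratio of -1.17. The 3′ reads count whichever transcript keeps the 3′ end, so this value does not check the deletion. The 2 measured genes of the list of DOT1L and its partners were within 2-fold, and that list summed to 1121 CPM in cKO and 1248 CPM in control barcodes. Cell cycle genes gave 109 UMIs in cKO and 31 UMIs in control barcodes, and none of the 10 was measured. Ddx4 had 16 UMIs in cKO and 3 UMIs in control mesenchymal barcodes, against 178 CPM in the cKO and 274 CPM in the control library among other barcodes.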

How the data were processed

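Single-cell RNA was measured in 1 cKO and 1 control library. The authors deposited UMI counts as whole numbers for each gene in each barcode, and the file headers name Cell Ranger 7.0.0. The submitters' processing notes name the build mm10 and Seurat 4.1.0, and the gene annotation is not given in the sources used here. Every deposited barcode had 500 or more UMIs.

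The members and the gene lists were chosen with earlier results of these data known. Counts of mesenchymal barcodes were summed per library and divided by their total (CPM). Ratios carry exact conditional binomial intervals, levels exact Poisson intervals and shares Clopper-Pearson intervals, all at 95%. Because molecules of 1 library are not replicates, no test was made, and these intervals leave out the spread between animals. Genes whose mesenchymal UMIs summed to 50 or more were called measured. Other barcodes for thinned shares were 1500 drawn per library.

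Named genes were those of the rule, up to 4 with most UMIs and 2 with the largest ratio per list, the 12 highest and 12 lowest enriched genes, the 5 highest and 5 lowest others with 100 or more UMIs (predicted, mitochondrial and hemoglobin symbols passed over), the 15 most enriched with 200 or more UMIs, Dot1l and Ddx4. Of these 118 genes, some are not reported here. Locations are from GENCODE on mm10. Doublets were not called, and free RNA was kept except in an alternative. Python 3.11.15, numpy 2.4.6, scipy 1.17.1 and pandas 2.3.3 were used, and the code for ratios and intervals was run on simulated counts. Those counts were drawn independently for each gene. They therefore cannot show how the intervals hold where a single barcode carries much of a gene.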

Additional observations from a re-analysis of the deposited data

Results flagged for a closer look

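Outside the mitochondrial limit, 7 cKO barcodes met the gene and share rule of the mesenchymal set while more than 10% of their UMIs were mitochondrial. That is 0.326% of the 2150 cKO barcodes over the limit (0.131% to 0.670%), against 2 of 1510 (0.132%) in the control library. These barcodes entered no comparison.

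A pair of genes had opposite ratios in mesenchymal and macrophage barcodes, and the difference was not tested. Auts2 was at a log2 ratio of 1.50 in mesenchymal barcodes (93 UMIs in cKO and 7 in control) and -2.50 in macrophage barcodes (17 UMIs in cKO and 37 in control). Ctnna3 was at a log2 ratio of 2.02 in mesenchymal barcodes (95 UMIs in cKO and 5 in control) and -1.77 in macrophage barcodes (85 UMIs in cKO and 112 in control).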

How the results depend on the processing

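The log2 ratio of the mesenchymal share lay between 1.75 and 2.37 when the rule, UMI minimum, mitochondrial limit or mixed barcodes were changed, and was 0.25 as a share of mesenchymal, Leydig and macrophage barcodes. Against 115 genes 2-fold or more higher and 31 lower in cKO barcodes, rule genes at 0.5% or more of UMIs gave 71 and 17, and a mitochondrial limit of 5% gave 76 higher. Scaling to enriched genes gave 188 and 13, a minimum of 100 UMIs per gene 31 and 5, and 1 or more UMIs in each library 1134 and 2094. Subtracting the library profile as free RNA took 53.4% of cKO and 36.5% of control mesenchymal UMIs, left 1033 genes with a value and gave 97 lower. The myoid list median was 0.70 without the barcode with most UMIs in each library, and the enriched genes' median 0.17 with free RNA subtracted. Removal of mesenchymal barcodes with other somatic markers or of those with more than 5% late spermatid UMIs kept both counts within 1.5 times. Among named genes past 2-fold, ratios of opposite sign came without the barcode with most UMIs in each library, at 0.056 for Myl9 and at least 2.99 for Acta2, and without the top barcode of the gene, at least 2.38 for Acta2 (floor of 3 counts). These 2 settings, the removal of myoid or late spermatid barcodes and scaling without germ cell genes were chosen after seeing the data. Over all genes named and settings, 1770 values stayed within the counting interval of the main ratio and 95 lay outside it. A change of sign was counted only for genes past 2-fold, where it held for 3 values. Genes within 2-fold could also turn, since the lowest measured rule gene was at 0.04 with free RNA subtracted. No cause was tested. No paired analysis was possible because each genotype has 1 library. Control barcodes limit the depth, since an interval of a log2 ratio was 1.77 wide for the median gene.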
